A study of Spodoptera frugiperda with 3 samples.

Results

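Verson's glands of pupae were compared with Verson's glands of prepupae of the fall armyworm (FAW, Spodoptera frugiperda), gene by gene, in 1 RNA-seq library per stage. A gene entered the comparison when it was listed as protein-coding, lay outside the mitochondrial sequence and had at least 20 reads on its exons in the pupa or the prepupa library. This held for 11755 of the 18811 protein-coding genes and of the 20644 genes listed in all. Both libraries were made from dissected glands of the transgenic strain FAW-SID1, which carries green fluorescent protein and the Caenorhabditis elegans dsRNA channel SID1 under the baculovirus promoters hr5-IE1 and IE1, so the transgenes are shared by both stages. The labels give the stage and the tissue only. The sources used here do not give the hours after pupation, the sex or the number of insects per library, and the transgenes were not analysed here. A library of glands from last instar larvae (L6) of the same strain was not part of the comparison and is given as a further level beside some genes. With 1 library per stage there is no replicate check, no test was made and no p-value is given. Every difference below is a difference between these libraries.

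Verson's glands are paired dermal glands of Lepidoptera, joined to the epidermis, with a large secretory cell that builds up material between molts and releases it at the molt. The prepupa is the stage in which the larval cuticle is digested by molting fluid and the pupal cuticle is laid down beneath it, and the gland degenerates after the pupal molt. In Lepidoptera the molting hormone ecdysone and juvenile hormone time these steps. In a dissected tissue, fewer cells of a type and less RNA per cell cannot be told apart.

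Levels are given as TPM, which are read counts per exon base with a fixed sum in each library, here rescaled to a sum of 1000000 after rRNA and mitochondrial genes were left out. Differences are log2 ratios of rescaled TPM + 1, pupa over prepupa, so that a positive value means higher in the pupa, and the added 1 understates the difference of low genes. A gene was called higher or lower at a ratio of 4-fold or more on this scale. Folds given with an interval are ratios of the rescaled TPM itself, with an exact 95% interval that covers counting error only. Where 1 library had no read, the fold is a bound, taken as if that library had held 3 reads.

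The libraries differed in more than the stage. Total exon reads were 18620715 in the pupa and 15208331 in the prepupa, of which 37.1% lay on rRNA genes in the pupa and 0.307% in the prepupa, and in the L6 library 87.8% of 21366500. The genes compared held 11036553 reads in the pupa and 14717359 in the prepupa. Exon length moved with the ratio across the whole table. Genes of up to 1000 exon bases held 68.8% of the pupa's rescaled TPM, 34.8% of the prepupa's and 60.2% of the L6 library's, and genes of over 3000 bases held 2.05% of the pupa's, 8.36% of the prepupa's and 2.91% of the L6 library's. The median log2 ratio was 1.39 for the 669 genes of 501 to 750 bases, -0.46 for the 1811 genes of 1501 to 2000 bases and -1.39 for the 2380 genes of 3001 to 5000 bases. Among the 1748 genes of up to 1000 bases 35.8% were higher and 8.92% lower in the pupa, and among the 3915 genes of over 3000 bases 0.920% were higher and 32.6% lower. The difference remained among genes with at least 100 reads in both libraries, where the medians were 0.81 for the short and -1.49 for the long genes. Its part in the results below was not tested, but most gene lists are also given relative to the median of the 500 genes nearest in exon length.

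**Figure D1:**
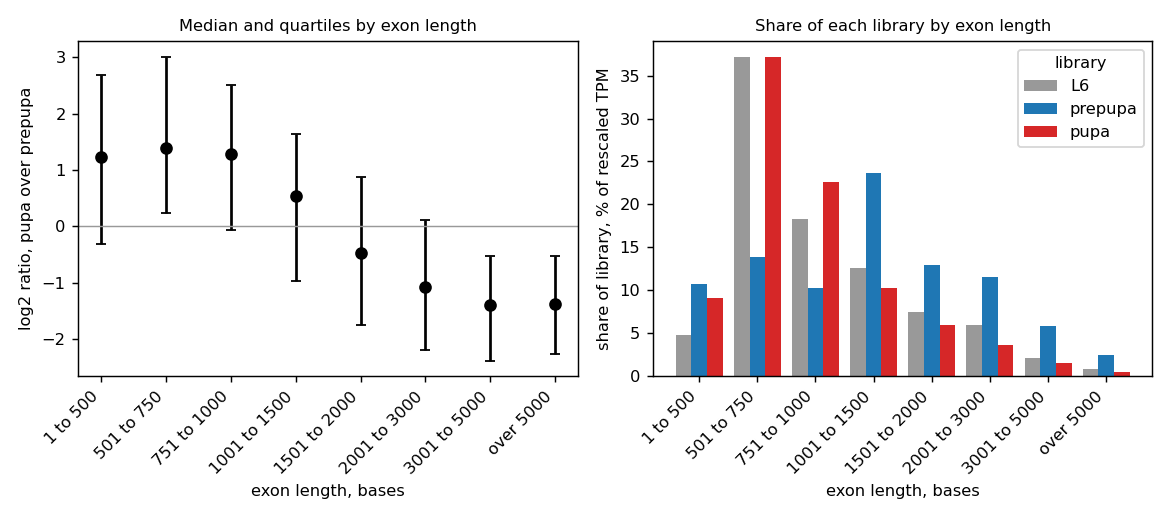
Left, log2 ratio of rescaled TPM + 1 (pupa over prepupa) by exon length class in bases, with points at the median and bars from the lower to the upper quartile of the genes in the class. Right, share of each library's rescaled TPM by exon length class, for L6, prepupa and pupa. The medians of the 3 classes up to 1000 bases lie between 1.24 and 1.39 and those above 2000 bases between -1.39 and -1.08, and the share of genes of up to 1000 bases is 68.8% in the pupa and 34.8% in the prepupa.

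More genes were lower than higher in the pupal gland. Of the 11755 genes, 1262 (10.7%) were at least 4-fold higher and 2749 (23.4%) at least 4-fold lower in the pupa, and 7744 lay between. At 10-fold, 485 genes (4.13%) were higher and 1047 (8.91%) lower, and at 2-fold 2582 (22%) were higher and 5055 (43%) lower. The higher genes held 31.1% of the pupa's rescaled TPM and 1.42% of the prepupa's, and the lower genes 2.14% of the pupa's and 48.2% of the prepupa's. The median log2 ratio over all genes was -0.67, with quartiles at -1.90 and 0.79. The balance of calls depended on the scaling. TMM scaling, which sets the middle of the genes near 0 and moved their median by 0.60, gave 2226 higher and 1922 lower genes, counts scaled to library size without length (CPM) gave 1926 higher and 2568 lower, and ratios relative to genes of like exon length gave 1277 (10.9%) higher and 1643 (14%) lower. No gene called in the reported scaling was called in the other direction under these settings. They move all genes, or genes of like length, together and by far less than the span between both limits. This outcome was therefore nearly fixed in advance.

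Called genes differed in structure as well. The higher genes had a median exon length of 1003.5 bases and 4 exons, the lower genes 2821 bases and 10 exons, and all genes compared 2132 bases and 7 exons. No read was found in the prepupa for 115 of the higher genes and none in the pupa for 184 of the lower genes. At the edge of the call, the smallest log2 ratio among the higher genes was 2.00079 and the next gene below it 1.99909, and among the lower genes the nearest were -2.00144 inside and -1.99873 outside. At the minimum of reads, 63 genes stood at 20 reads and 76 protein-coding genes at 19 reads in their deeper library, and 7043 protein-coding genes under the minimum were not compared.

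**Figure D2:**
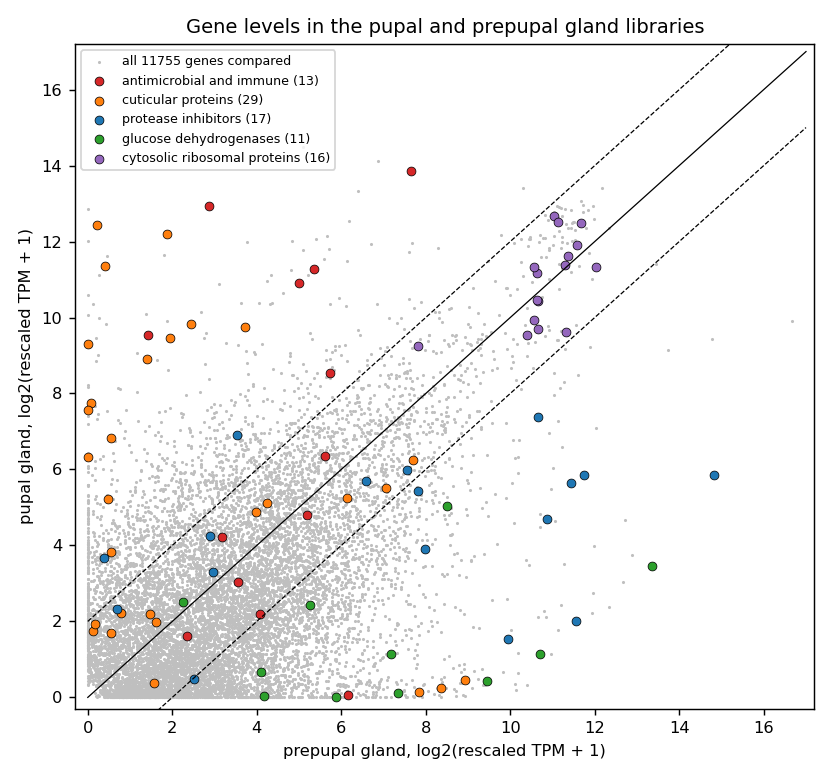
Level of each of the 11755 genes in the pupa (vertical axis) against the prepupa (horizontal axis), both as log2 of rescaled TPM + 1, with 5 gene lists coloured. The solid line marks equal levels and the dashed lines 4-fold differences. Above the upper dashed line lie 14 of 29 cuticular genes, with 3 below the lower line, and 6 of 13 antimicrobial and immune genes, with 1 below. Below the lower dashed line lie 10 of 17 protease inhibitors, with 2 above the upper line, and 10 of 11 glucose dehydrogenases. The 16 cytosolic ribosomal protein genes all lie between the dashed lines.

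Protein names were held for 2228 of the genes compared (18.95%), of which 378 are uncharacterized proteins, and the names come mostly from the study's own selection of genes that were high in the glands, so a count by name is a count within that selection and not independent evidence of its direction. Genes named from the larger of these selections were at least 4-fold higher in 13.9% and lower in 32.2%. The 233 genes named only from the study's selection of hemolymph protein genes had 33.05% higher, 20.2% lower and a median log2 ratio of 0.42. Hemolymph protein genes that the study also selected as high or low in the glands are not among these 233. The values therefore do not describe the whole hemolymph selection, and they are to be read beside the fat body and hemolymph list below. Counts below are read beside the 10.7% higher and 23.4% lower of all genes.

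Cuticular proteins, the structural proteins that bind chitin in the exoskeleton, were among the most strongly different transcripts. Of 37 named members 29 passed the minimum of reads, and of these 14 were at least 4-fold higher in the pupa, 3 were lower and 12 lay between, with a median log2 ratio of 1.76, which stayed positive under every scaling tried. Relative to genes of like exon length 13 were higher and 4 lower. Together they held 17374 TPM in the pupa, 1519 TPM in the prepupa and 10202 TPM in the L6 library. The larval/pupal rigid cuticle protein 66-like gene LOC118273654 stood at 5584 TPM in the pupa (43612 reads) and at 0.154 TPM in the prepupa (1 read), a ratio of 36161 (95% interval 6490 to 1428320). LOC118272373, a cuticle protein 21-like gene, had 2632 TPM in the pupa and 0.330 TPM in the prepupa. These genes were thus abundant in the pupal gland library and close to absent from the prepupal one. The glands are joined to the epidermis, which the paper gives as the usual site of cuticular protein gene expression. No epidermis markers were examined, and the part of attached epidermis in these levels was not tested. The neighbouring cuticle protein 21-like gene LOC118272371 had 625 TPM in the pupa and no read in the prepupa, at least 1306-fold higher. Of the pair of pupal cuticle protein 36-like genes, LOC118265846 had 215 TPM in the pupa and 0.0526 TPM in the prepupa, and LOC118266013 188 TPM in the pupa and no read in the prepupa. LOC118275060 and LOC118274730, both named pupal cuticle protein-like, were 289-fold (95% interval 178 to 505) and 69.7-fold (59.4 to 82.4) higher.

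Not all cuticular genes followed that direction. The 2 cuticle protein 19-like genes and pro-resilin-like, the precursor of the rubber-like cuticle protein resilin, were the 3 lower members. LOC118261992 had 0.386 TPM in the pupa and 489 TPM in the prepupa, and LOC118261804 0.101 TPM in the pupa and 227 TPM in the prepupa. Pro-resilin-like LOC118267795 had 0.178 TPM in the pupa and 329 TPM in the prepupa, 1842-fold lower (95% interval 789 to 5675). All 3 had no read in the L6 library, and at most 5 reads in the pupa library. A further set was low at both stages and high in L6 glands. Larval cuticle protein LCP-17-like LOC118282344 had 2.21 TPM in the pupa and 0.464 TPM in the prepupa, and 1085 TPM in the L6 library. LCP-30-like LOC118282342 had 2.35 TPM in the pupa and 0.0811 TPM in the prepupa, and 1326 TPM in the L6 library. The chitin-binding protein obstructor-E-like was represented by 6 genes, none of which passed 4-fold, with log2 ratios of -1.53 to 0.89.

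Several of the cuticular genes lie side by side. On the sequence that the files name NC_049726.1, 9 genes in a row between 8014615 and 8082967 were at least 4-fold higher in the pupa, with log2 ratios of 2.90 to 12.00. They include both cuticle protein 21-like genes, a pair of cuticle protein 16.5-like genes and the uncharacterized LOC118272368, which had 4100 TPM in the pupa and no read in the prepupa, at least 12564-fold higher. The lowest share of uniquely mapped reads of a gene in this run was 10.6%. A second run of 7 genes on NC_049727.1, between 12994780 and 13082963, holds 4 rigid cuticle protein 66-like genes and 3 genes for which no name is held, with log2 ratios of 5.18 to 12.24. Here the lowest share of uniquely mapped reads of a gene was 0%. LOC118273370 in this run had 4710 TPM in the pupa and 2.67 TPM in the prepupa, but 10.7% of its reads mapped uniquely, so its reads may have been shared with a similar gene. Coordinates are those of the files, and the genome build is not given in the sources used here.

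The gene with the largest ratio of all, the uncharacterized LOC118273859, had 7392 TPM in the pupa and no read in the prepupa, at least 22392-fold higher. It lies in a run of 7 higher genes on NC_049728.1, between 5560728 and 5616286, with log2 ratios of 3.67 to 12.85. Its neighbours include the uncharacterized LOC118273870, with 3170 TPM in the pupa and 0.371 TPM in the prepupa, and calphotin-like LOC118274334, with 4033 TPM in the pupa and 12.6 TPM in the prepupa. The lowest share of uniquely mapped reads of a gene in this run was 2.63%. Across the genome, 60 runs of at least 3 neighbouring compared genes were higher throughout, with 227 genes or 18.0% of the higher genes and at most 9 in a row. There were 164 such runs of lower genes, with 570 genes or 20.7% of the lower genes and at most 10 in a row. Lower genes were 23.4% and higher genes 10.7% of all genes compared, so lower genes meet in runs more often by number alone. The share that a shuffled gene order would give was not computed. The run counts are therefore a description and are not read as clustering, nor compared between directions. The longest lower runs were on NC_049723.1, between 329094 and 678405, and on NC_049712.1, between 12773022 and 12844145. The second of these holds short genes of 390 to 822 exon bases, among them the histidine-rich glycoprotein-like LOC118262032 with 0.115 TPM in the pupa and 266 TPM in the prepupa, and none of its 10 genes had a read in the L6 library.

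Antimicrobial peptides and immune recognition proteins were another group with higher members in the pupa. Of 14 named members 13 passed the minimum of reads, and of these 6 were at least 4-fold higher and 1 was lower, with a median log2 ratio of 1.05, positive under every scaling tried. Relative to genes of like exon length 5 were higher and 1 lower. The 13 genes summed to 28271 TPM in the pupa, 522 TPM in the prepupa and 1242 TPM in the L6 library. Inducible metalloproteinase inhibitors, which the paper counts among antimicrobial peptides, are not in this list. They are given with the protease inhibitors below and were mostly lower in the pupa, so the sum does not cover all antimicrobial genes of the paper. The 6 higher genes are secreted effectors and a recognition protein, and the members between or below are mostly recognition and signalling proteins. Lebocin-4-like LOC118280606, a proline-rich peptide of Lepidoptera, had 14838 TPM in the pupa and 199 TPM in the prepupa, 74.4-fold higher (95% interval 70.8 to 78.2). Gloverin-like LOC118279253, a glycine-rich peptide known from moths, had 7786 TPM in the pupa and 6.26 TPM in the prepupa, 1243-fold higher (940 to 1681). Attacin-A-like LOC118270353, of a family that acts on Gram-negative bacteria, had 737 TPM in the pupa and 1.68 TPM in the prepupa, but none of its reads mapped uniquely. Lysozymes cut the bacterial cell wall, and the higher of the 2 lysozyme-like genes, LOC118265509, had 2468 TPM in the pupa and 39.6 TPM in the prepupa. The peptidoglycan recognition protein-like LOC118268611 had 1933 TPM in the pupa and 30.8 TPM in the prepupa, 62.7-fold higher (55.3 to 71.5).

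The peptidoglycan-recognition protein LE-like LOC118262842 had 3.58 TPM in the pupa and 15.9 TPM in the prepupa, and the beta-1,3-glucan-binding protein-like LOC118272681 had 2.09 TPM in the pupa and 4.10 TPM in the prepupa. The 1 lower gene was spaetzle 4-like LOC118272073, related to the ligand of the Toll receptor in Drosophila, with 0.0414 TPM in the pupa (1 read) and 70.5 TPM in the prepupa (1413 reads). Apart from this gene, neither of the other genes named spaetzle-like passed 4-fold, with log2 ratios of 1.05 and -0.38.

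Transcripts of hemolymph proteins, which are made mainly by the fat body, moved the same way. Of 13 named members of the fat body and hemolymph list 10 passed the minimum of reads, and all 10 had positive log2 ratios, from 1.11 to 8.16, and 6 were at least 4-fold higher, or 8 relative to genes of like exon length. Their summed level was 13164 TPM in the pupa, 555 TPM in the prepupa and 3884 TPM in the L6 library. Apolipophorin-3 LOC118274630, the exchangeable apolipoprotein of insect lipophorin, had 10387 TPM in the pupa and 83.5 TPM in the prepupa, 124-fold higher (95% interval 115 to 135). The apolipophorins-like LOC118280748, the large lipophorin precursor, had 339 TPM in the pupa and 30.2 TPM in the prepupa. This gene has 10406 exon bases, a length class in which few genes were higher. Ferritin subunit-like LOC118278734, an iron storage protein, had 1443 TPM in the pupa and 192 TPM in the prepupa. Apolipoprotein D-like LOC118276696 had 286 TPM in the pupa and no read in the prepupa, at least 1078-fold higher. The juvenile hormone-binding protein-like LOC118276399, a hemolymph carrier, had 2239 TPM in the pupa and 19.2 TPM in the prepupa, and the basic juvenile hormone-suppressible proteins LOC118276436 and LOC118272014, which are storage proteins of the fat body in moths, were 10.1-fold (9.60 to 10.7) and 5.82-fold (5.63 to 6.01) higher. These markers moved together with the antimicrobial genes, and their part in that result was not tested.

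Markers of other tissues that a dissection could carry over did not share a direction across the lists, and no list covered the epidermis. The 11 muscle genes summed to 266 TPM in the pupa, 321 TPM in the prepupa and 7234 TPM in the L6 library, with 2 higher and 2 lower. Their median log2 ratio was 1.61, with 7 of the 11 above 0 and 4 below. It was positive under every scaling tried, and 0.57 relative to genes of like exon length. Of 9 genes of the basement membrane list 1 was higher and 1 lower, and the collagen IV genes LOC118273019 and LOC118273020 had log2 ratios of -0.85 and -1.13. The higher one was collagen alpha-1(I) chain-like LOC118265974, which is not named as collagen IV or laminin. It lies in a run of higher genes with pupal cuticle protein 36-like LOC118266013. Of the 5 midgut list genes 1 was higher and 3 lower, the largest level being that of lipase member H-like LOC118265357 with 2.43 TPM in the pupa and 2243 TPM in the prepupa. This list takes in lipases by name, so that level is not read as a sign of midgut tissue. Fibroin light chain-like LOC118271397, the silk gland marker, had 12.1 TPM in the pupa and no read in the prepupa. The 3 nerve genes and the 2 hemocyte genes held too few members to describe as a group, and no compared gene matched the trachea list. The labels give no defining marker of Verson's glands, so the tissue label could not be checked from within.

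The most abundant transcripts of the prepupal gland were mostly lower in the pupa. The uncharacterized LOC118266093 alone took 103464 TPM in the prepupa, and stood at 953 TPM in the pupa and 9.15 TPM in the L6 library. The 2 U-scoloptoxin(19)-Sm1a-like genes LOC118262745 and LOC118262758, named after centipede venom peptides, had 687 and 562 TPM in the pupa and 28127 and 13537 TPM in the prepupa. Of the 10 most abundant genes of the prepupa, 9 were at least 4-fold lower in the pupa, and the remaining one was thymosin beta-like LOC118276119, an actin-binding peptide, with 5253 TPM in the pupa and 5195 TPM in the prepupa. Choosing genes by their prepupa level itself favours low ratios, so this count is a description only. The 10 most abundant genes of the pupa were led by LOC118269569, for which no name is held, with 22964 TPM in the pupa and 33.1 TPM in the prepupa, but with 11.9% of its reads mapped uniquely. LOC118265131, also without a name held, followed with 17694 TPM in the pupa and 116 TPM in the prepupa.

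**Figure D3:**
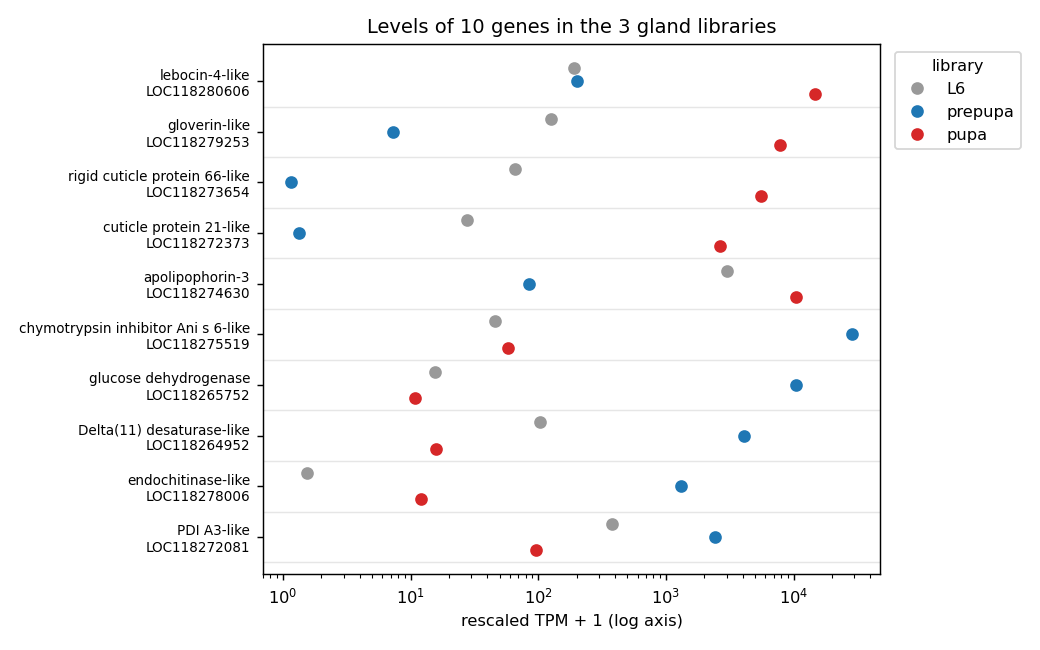
Rescaled TPM + 1 (log axis) of 10 genes in the L6, prepupa and pupa libraries, 1 point per library. The upper 5 genes are highest in the pupa, up to 14838 TPM for lebocin-4-like, and the lower 5 are highest in the prepupa, up to 28844 TPM for chymotrypsin inhibitor Ani s 6-like, with at most 94.9 TPM in the pupa.

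Protease inhibitors were mostly lower in the pupa. Of 17 measured members 10 were at least 4-fold lower and 2 higher in the pupa, 10 were also lower relative to genes of like exon length, and the median log2 ratio of -2.39 was negative under every scaling tried. They summed to 690 TPM in the pupa, 43290 TPM in the prepupa and 1158 TPM in the L6 library. Chymotrypsin inhibitor Ani s 6-like LOC118275519 made up most of this, with 57.2 TPM in the pupa and 28844 TPM in the prepupa, 505-fold lower (95% interval 452 to 565). This gene has 438 exon bases, a length at which the median gene was higher in the pupa. Serine protease inhibitor swm-1-like LOC118271848 had 2.99 TPM in the pupa and 2988 TPM in the prepupa. Inducible metalloproteinase inhibitors, which block microbial metalloproteinases in moths, were lower for LOC118282207 (56.6 TPM in the pupa and 3446 TPM in the prepupa), LOC118261953 (49.2 TPM and 2751 TPM) and LOC118282478 (1.93 TPM and 989 TPM). The fourth, LOC118282205, had 4.06 TPM in the pupa and 0.625 TPM in the prepupa. The 2 higher members, alaserpin-like LOC118282272 and antichymotrypsin-1-like LOC118265780, are serpins by name and had 119 and 11.6 TPM in the pupa, against 10.7 and 0.307 TPM in the prepupa.

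Secreted peptidases, which include enzymes of the molting fluid that digest old cuticle, were also mostly lower, with 10 of the 20 that passed the minimum of reads (24 named) at least 4-fold lower, 3 higher and a median log2 ratio of -2.48, and 11 lower and 3 higher relative to genes of like exon length. Trypsin-1-like LOC118271895 had 0.194 TPM in the pupa and 308 TPM in the prepupa, and serine protease 7-like LOC118265362 had 44.8 TPM in the pupa and 627 TPM in the prepupa. Outside that list, the astacin-type zinc metalloproteinase nas-4-like LOC118274879 had 7.24 TPM in the pupa and 6469 TPM in the prepupa, 893-fold lower (95% interval 746 to 1079). Matrix metalloproteinase-2-like LOC118267038, of a family that cuts basement membrane and extracellular matrix, went the other way with 226 TPM in the pupa and 9.56 TPM in the prepupa, 23.6-fold higher (20.3 to 27.6). A second gene of the same name, LOC118269321, had a log2 ratio of 0.26.

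Among chitin-modifying enzymes more were lower than higher in the pupa on the reported scale. Of 10 members 6 were lower and 2 higher, with a median log2 ratio of -2.73, and relative to genes of like exon length 3 were lower and 3 higher. Endochitinase-like LOC118278006, the enzyme type that opens chitin chains during molting, had 11.2 TPM in the pupa and 1315 TPM in the prepupa, 118-fold lower (95% interval 107 to 130). Both chitooligosaccharidolytic beta-N-acetylglucosaminidase genes, which finish the digestion of chitin fragments, were lower, at 8.44 and 2.25 TPM in the pupa and 108 and 69.4 TPM in the prepupa for LOC118265219 and LOC118272518. Both chitin deacetylase 1 genes, LOC118273193 and LOC118273685, were also lower, with log2 ratios of -2.76 and -2.84. The chitinase-like protein EN03 LOC118276216, of a family of growth factors without chitinase activity, had 1351 TPM in the pupa and 235 TPM in the prepupa, 5.75-fold higher (5.58 to 5.94). The other higher member had the largest log2 ratio of the list, 2.87.

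Tanning and melanization genes, whose products darken and harden cuticle, had 6 of 10 members lower and none higher, with a median log2 ratio of -3.10, and 5 were lower relative to genes of like exon length. Protein yellow-like LOC118264028 had 1.23 TPM in the pupa and 2002 TPM in the prepupa, and laccase-1-like LOC118266894, of the multicopper oxidases, had 0.560 TPM in the pupa and 60.1 TPM in the prepupa. The phenoloxidase subunit genes LOC118274553 and LOC118274789 were low at both stages, with 1.68 and 1.11 TPM in the pupa and 1.55 and 1.82 TPM in the prepupa. Glucose dehydrogenases, oxidoreductases of the GMC family, were the list with the lowest median of those described, -5.88, with 10 of 11 members lower also relative to genes of like exon length. LOC118265752 had 9.92 TPM in the pupa and 10450 TPM in the prepupa, with 0.966% of its reads mapped uniquely. LOC118264453, with 99.6% unique reads, had 1.21 TPM in the pupa and 1674 TPM in the prepupa. The smallest log2 ratio of all genes, -10.05, was that of catalase-like LOC118282430, an enzyme that breaks down hydrogen peroxide, with 0.262 TPM in the pupa and 1339 TPM in the prepupa, and 2 peroxidase-like genes, LOC118269931 and LOC118269917, had log2 ratios of -9.55 and -9.16.

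Genes for fatty acid and wax synthesis fell into a prepupal and a pupal set. Of 13 members 9 were lower and 3 higher in the pupa, with a median log2 ratio of -4.28, and relative to genes of like exon length 8 were lower and 3 higher. The acyl-CoA Delta(11) desaturase-like LOC118264952, which puts a double bond into acyl chains, had 14.9 TPM in the pupa and 4061 TPM in the prepupa, 273-fold lower (95% interval 250 to 298). Fatty acyl-CoA reductases make fatty alcohols for waxes and pheromones, and LOC118265386 had 3.33 TPM in the pupa and 1624 TPM in the prepupa. The higher members were 2 fatty acid synthase-like genes, LOC118274609 with 29.3 TPM in the pupa and 0.0844 TPM in the prepupa and LOC118274634 with 13.0 TPM in the pupa and 0.0121 TPM in the prepupa, and the elongase LOC118275168 with 38.1 TPM in the pupa and no read in the prepupa. Another fatty acid synthase-like gene, LOC118272899, had 1.08 TPM in the pupa and 125 TPM in the prepupa. Different genes of the same name thus stood high at the 2 stages. Of 10 fatty acid oxidation genes 5 were lower, 3 relative to genes of like exon length, and none higher. Beside the lipid enzymes, the cytochrome b5-related LOC118268438 had 4.21 TPM in the pupa and 5166 TPM in the prepupa, and LOC118268419 3.64 TPM in the pupa and 3888 TPM in the prepupa.

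**Figure D4:**
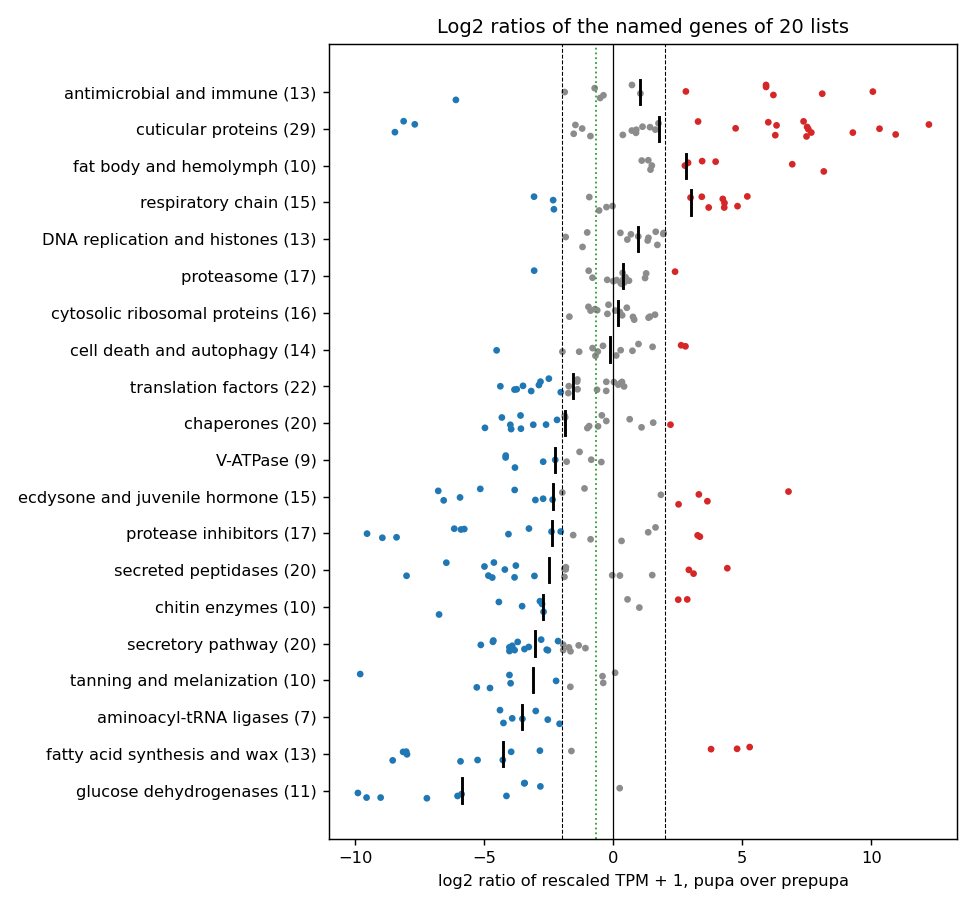
Log2 ratio of rescaled TPM + 1 (pupa over prepupa) of the members of 20 gene lists, 1 point per gene, with the number of genes in brackets. Red points are at least 4-fold higher and blue points at least 4-fold lower in the pupa, black bars mark list medians, dashed lines the 4-fold limits and the green dotted line the median of all genes at -0.67. List medians run from -5.88 for glucose dehydrogenases to 2.997 for the respiratory chain, and the secretory pathway and V-ATPase lists have no point above 0.

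The machinery of protein secretion was lower as a group. All 20 members of the secretory pathway list had log2 ratios below 0, from -5.14 to -1.08, under the reported scaling, and 14 were at least 4-fold lower, or 11 relative to genes of like exon length. Their summed level was 842 TPM in the pupa, 6507 TPM in the prepupa and 2450 TPM in the L6 library. Protein disulfide-isomerase A3-like LOC118272081, which helps new proteins fold in the endoplasmic reticulum, had 94.9 TPM in the pupa and 2405 TPM in the prepupa, 25.4-fold lower (95% interval 24.3 to 26.5). The translocon subunits Sec61 alpha, LOC118262163 and LOC118262154, had 18.7 and 5.29 TPM in the pupa and 256 and 88.2 TPM in the prepupa. Coatomer subunits, which coat vesicles returning from the Golgi, had log2 ratios of -5.14 for beta' LOC118275640 and -4.67 and -4.02 for the alpha genes LOC118270370 and LOC118270806. Chaperones had 9 of 20 members lower and 1 higher, or 8 lower and 1 higher relative to genes of like exon length, heat shock 70 kDa protein cognate 4 LOC118268613 having 359 TPM in the pupa and 3085 TPM in the prepupa with 22.7% unique reads. The higher one was an inducible type, major heat shock 70 kDa protein Ab-like LOC118274676, with 49.2 TPM in the pupa and 9.78 TPM in the prepupa.

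Translation genes differed with their length. The 7 aminoacyl-tRNA ligases, which load amino acids onto tRNA, were all at least 4-fold lower, with log2 ratios of -4.39 to -2.08, and 5 of them also relative to genes of like exon length. Of 22 translation factors 9 were lower, 5 relative to genes of like exon length, and none higher. Their log2 ratio ran with exon length (Spearman's rho -0.81 across the 22 genes, which share both libraries and are not independent replicates). Elongation factor 1-beta' LOC118271654, with 814 exon bases, had a log2 ratio of 0.42, elongation factor 1-alpha LOC118272072, with 1843 bases, had -2.04, and initiation factor 4B-like LOC118270046, with 2653 bases, had -4.38. Translation elongation factor 2 LOC118265757 had 372 TPM in the pupa and 2103 TPM in the prepupa. The 16 cytosolic ribosomal protein genes, of 507 to 1424 exon bases, lay between the 4-fold limits, from -1.70 to 1.62, and their median of 0.17 became -0.12 with rRNA and mitochondrial genes left in the scaling, and -1.12 relative to genes of like exon length. Their summed level was 41874 TPM in the pupa and 33592 TPM in the prepupa.

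The V-ATPase, the proton pump of internal membranes, had 5 of 9 subunits lower, 3 relative to genes of like exon length, and all 9 log2 ratios were below 0. Catalytic subunit A LOC118267501 had 22.9 TPM in the pupa and 429 TPM in the prepupa, and subunit B LOC118270348 27.02 TPM in the pupa and 505 TPM in the prepupa, both 18.7-fold lower (95% intervals 17.4 to 20.2 and 17.4 to 20.1). Subunits of the same complex were unequal, since subunit F LOC118268252 had 327 TPM in the pupa and 450 TPM in the prepupa. Subunit E LOC118278043, the shortest at 681 exon bases, had 77.5 TPM in the pupa and 1101 TPM in the prepupa. Across the 9 subunits rho between exon length and log2 ratio was -0.57, and the part of length was not tested. Of 17 proteasome genes, whose products degrade tagged proteins, 15 lay between the limits, and their median of 0.36 became -0.71 relative to genes of like exon length. Nuclear genes of the respiratory chain were split, with 8 of 15 higher and 3 lower, or 7 higher and 4 lower relative to genes of like exon length. Cytochrome c oxidase subunit 6B1-like LOC118272914, with 376 exon bases, had 397 TPM in the pupa and 19.9 TPM in the prepupa, and ATP synthase subunit alpha LOC118265881, with 2066 bases, had 82.3 TPM in the pupa and 700 TPM in the prepupa. In this list rho between exon length and log2 ratio was -0.80 across 15 genes, and with uniquely mapped reads its median of 2.997 became 0.16. Of 8 glycolysis genes 4 were lower on either scale and none higher. Across the 11755 genes rho was -0.45, and among the 17 protease inhibitors it was 0.62.

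Receptors and early genes of the ecdysone response were mostly lower in the pupa. The nuclear receptor FTZ-F1-like LOC118267427, a competence factor of the prepupal period in Drosophila, had 0.778 TPM in the pupa and 108 TPM in the prepupa, 139-fold lower (95% interval 111 to 178). Hormone receptor 4-like LOC118262489 had 0.670 TPM in the pupa and 58.6 TPM in the prepupa. Broad-complex LOC118269059, which specifies the pupal stage, had 5.32 TPM in the pupa and 88.4 TPM in the prepupa. The ecdysone receptor itself, LOC118267067, had 14.03 TPM in the pupa and 58.1 TPM in the prepupa, a log2 ratio of -1.98 that did not pass 4-fold. These 4 genes have 7385 to 14516 exon bases, a length range with low ratios, and relative to genes of like length their log2 ratios were -4.59 for FTZ-F1-like, -3.82 for hormone receptor 4-like, -2.58 for Broad-complex and -0.60 for the ecdysone receptor. Cytochrome P450 18a1-like LOC118266961, the enzyme type that inactivates ecdysteroids, had 4.81 TPM in the pupa and 107 TPM in the prepupa. Juvenile hormone esterase-like genes, whose products break down juvenile hormone, differed among themselves. LOC118275676 and LOC118275675 had no read in the pupa and 109 and 94.4 TPM in the prepupa, while LOC118275677 had 20.7 TPM in the pupa and 5.05 TPM in the prepupa, and under 50% of the reads of each mapped uniquely. Over the 15 genes of the ecdysone and juvenile hormone list, 8 were lower and 4 higher (7 and 5 relative to genes of like exon length), the 4 being 3 hemolymph or storage proteins named above and ecdysteroid-regulated 16 kDa protein-like LOC118267732.

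Cell death genes showed no common direction. Of 14 genes 2 were higher, 1 was lower and 11 lay between. The median log2 ratio of -0.14 became 0.67 with TMM scaling and 0.63 relative to genes of like exon length. Caspase-1-like LOC118267265 and caspase-1 LOC118267264, proteases that carry out apoptosis, had 60.4 and 50.9 TPM in the pupa and 20.3 and 30.0 TPM in the prepupa, with log2 ratios of 1.52 and 0.74. The 2 higher genes were both cathepsin B-like, a lysosomal protease, at 124 and 103 TPM in the pupa and 16.99 and 15.8 TPM in the prepupa for LOC118264342 and LOC118264335, and none of their reads mapped uniquely. Among transcription factors 6 of 33 were higher and 7 lower. Homeobox protein Mohawk-like LOC118273125 had 156 TPM in the pupa and 0.651 TPM in the prepupa, 239-fold higher (95% interval 137 to 463), and the Hox gene abdominal-A LOC118269765, which sets the identity of abdominal segments, had 11.4 TPM in the pupa and 95.3 TPM in the prepupa. Of 28 cytoskeleton genes 4 were higher and 5 lower, from 4610 TPM in the pupa and 877 TPM in the prepupa for profilin LOC118273211, which binds actin monomers, to 2.998 TPM in the pupa and 279 TPM in the prepupa for non-muscle myosin heavy chain LOC118264677.

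Levels in the L6 library were set beside those of both stages. Over the 1262 higher genes the L6 level lay above both stages for 209, between them for 638 and below both for 415. Over the 2749 lower genes it lay above both for 78, between for 2198 and below both for 473. In L6 the lower genes held 4.92% and the higher genes 33.7% of the rescaled TPM. The median level of the lower genes was 1.22 TPM in the pupa, 23.7 TPM in the prepupa and 3.996 TPM in the L6 library. Cuticle protein CP14.6-like LOC118269457 had 79.6 TPM in the pupa and no read in the prepupa, and 5508 TPM in the L6 library.

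The genes that were near absent from the prepupa could be followed into the L6 library. Of 27 genes with at least 2000 pupa reads and under 1 TPM in the prepupa, 16 stood in L6 at 0.853% to 1.29% of their pupa level, and the rest ran from 0.295% to 25.2%. The sources used here do not say whether the libraries shared a lane or an index, so L6 levels near 1% of the pupa level are not read here as expression in L6 glands.

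**Figure D5:**
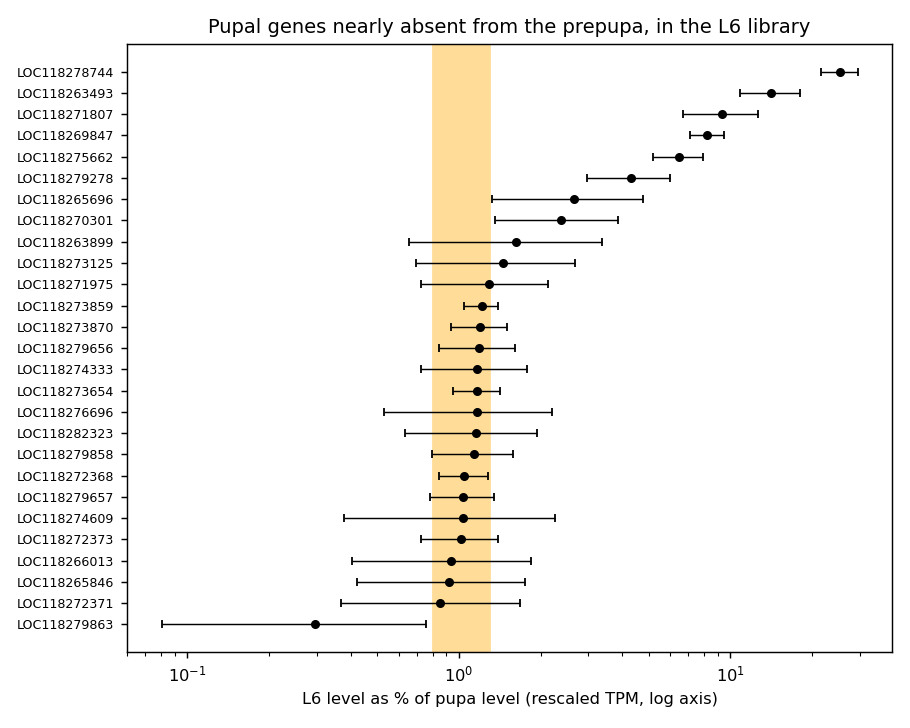
L6 level as a percentage of the pupa level (rescaled TPM, log axis) for the 27 genes, 1 point per gene, with bars for exact 95% counting intervals. The shaded band spans 0.8% to 1.3%, and 16 of the 27 points lie in it.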

How the data were processed

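RNA from FAW-SID1 glands (pupa, prepupa and L6, 1 library each) was sequenced on the BGISEQ-500. Mapping to the FAW genome was done by the authors with CLC Genomics Workbench 9.5.9, who deposited raw read counts per gene, RPKM and TPM. The deposited TPM include rRNA. The sources used here give neither the build nor how reads with several matches were shared out. For this comparison the deposited TPM of rRNA genes and of the mitochondrial sequence were dropped, each library was rescaled to a sum of 1000000, and log2 ratios were taken with a pseudocount of 1 for protein-coding genes with at least 20 exon reads in either library (Python 3.11.15, pandas 2.3.3). The deposited RPKM were not used for results. Intervals are exact Clopper-Pearson intervals (scipy 1.17.1) on the deposited counts, at 95%, and the floor is 3 reads.

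Protein names came from the paper's supplementary gene tables, matched by gene identifier or by accession, where 413 of 596 accessions of 1 table matched. Gene lists are patterns on these names. The members, lists and tests were chosen with earlier results of these data known, and some names that matched a pattern wrongly were removed after values were seen. Named genes are the 15 largest and 15 smallest log2 ratios, the 10 highest in each library, in each list the 3 highest and the 2 largest and 2 smallest ratios, the 5 longest runs per direction and genes the paper names. Other list members that are named were chosen after their values were seen. Alternatives were deposited TPM, TMM (edgeR 4.0.16 in R 4.3.3), CPM, uniquely mapped reads, other pseudocounts, minimums and folds, and leaving out the 10 highest genes of either library. Ratios relative to the 500 genes nearest in exon length, a minimum of 90% uniquely mapped reads and the length correlations were chosen once values had been seen. The ratio computation was tested on simulated data. Sequences were not used here.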

Additional observations from a re-analysis of the deposited data

Results flagged for a closer look

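The L6 library, which the comparison leaves out, held reads of genes that were close to absent from the prepupa. Of 27 genes with at least 2000 reads in the pupa and under 1 TPM in the prepupa, 16 stood in L6 at between 0.853% and 1.29% of their pupa level, although their pupa levels ran from 29.3 TPM for fatty acid synthase-like LOC118274609 to 7392 TPM for the uncharacterized LOC118273859. These 16 genes together had 724 reads in L6 and 322183 reads in the pupa, or 0.225 L6 reads per 100 pupa reads. They include cuticle protein 21-like, pupal cuticle protein 36-like and apolipoprotein D-like genes. Over all 27 genes the L6 level ran from 0.295% to 25.2% of the pupa level, with a median of 1.18%. In the reverse check, of 125 genes under 1 TPM in the pupa with at least 2000 reads in the prepupa, 34 had no read in L6 and 6 stood at 0.8% to 1.3% of their prepupa level. The band of 0.8% to 1.3% was chosen after the values were seen, and what sets these shares was not tested. The sources used here do not say whether the L6 and pupa libraries shared a lane or an index, so these L6 levels are not read as expression in L6 glands. The ratios of pupa to prepupa do not use the L6 library.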

How the results depend on the processing

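No paired analysis was possible because there was 1 library per stage and the labels carry no replicate numbers. The higher genes numbered 1262 as reported, 2226 with TMM scaling, 1926 with CPM, 684 with a pseudocount of 5, 485 at 10-fold and 2582 at 2-fold. The lower genes numbered 2749 as reported, 1349 with a pseudocount of 5, 1047 at 10-fold, 5055 at 2-fold and 1643 relative to genes of like exon length. The median log2 ratio of the members, -0.67 as reported, was -0.83 with deposited TPM, -0.0717 with TMM, -0.29 with CPM, -0.52 with uniquely mapped reads, -0.94 with a pseudocount of 0.1, -0.30 with a pseudocount of 5, -0.015 without a minimum of reads, -0.95 with a minimum of 100 reads and -0.91 without the 10 highest genes of either library. Relative to genes of like exon length, 812 of the reported higher and 1422 of the reported lower genes kept their call. Of the 296 named genes recomputed, 219 were past 4-fold, of which 0 changed sign in any setting with the 4-fold limit. Of these 219, 164 stayed past 4-fold in every planned setting with that limit. A gene that a setting left out was counted as staying. The 10-fold and 2-fold settings were not part of this check. The scaling and exon length settings shift genes by less than 4-fold, so a change of sign there was hardly possible. Signs of the named genes within 4-fold were not counted here. Of 68 counts by list, 46 moved by over 1.5 times in some setting. Counting intervals omit variation between insects and between library preparations, which 1 library per stage does not show, and the stage cannot be told apart from the library. The lower depth outside rRNA in L6 limits its low values most.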

Other observations

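Solute transporters and detoxification enzymes were not described above. Of 34 sugar and solute transporters 17 were at least 4-fold lower and 3 higher in the pupa, with a median log2 ratio of -1.95, and relative to genes of like exon length 9 were lower and 3 higher. Aquaporin AQPAe.a-like LOC118263055, a water channel, had 26.6 TPM in the pupa and 707 TPM in the prepupa. The proton-coupled amino acid transporter-like LOC118266449 had 0.408 TPM in the pupa and 122 TPM in the prepupa. The 3 higher members were trehalose transporters of the Tret1 type, which carry the main hemolymph sugar of insects. LOC118269823 had 34.9 TPM in the pupa and 0.989 TPM in the prepupa, with 20.1% of its reads mapped uniquely, and other genes of the same type were lower, among them LOC118281930 with 7.21 TPM in the pupa and 73.9 TPM in the prepupa.

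Of 18 cytochrome P450 and glutathione S-transferase genes 8 were lower and 3 higher, or 10 lower and 2 higher relative to genes of like exon length. Cytochrome P450 9e2-like LOC118264635 had 200 TPM in the pupa and 6.53 TPM in the prepupa, and a second gene of that name, LOC118264410, had 3.44 TPM in the pupa and 83.5 TPM in the prepupa. General odorant-binding protein 56a-like LOC118278025, of a family of small secreted carriers, had 129 TPM in the pupa and 0.834 TPM in the prepupa. None of the 13 genes that matched the DNA replication and histone list passed 4-fold, with log2 ratios of -1.84 to 1.95. The list also took in cyclin-G-associated kinase-like LOC118261879, which has the -1.84, and cyclin-C LOC118262683. Neither is named for DNA replication or histones, so the range is that of the name pattern.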
